A study of Mus musculus with 12 samples.

Results

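Colon tumours lacking both the tumour suppressor p53 and the microRNA miR-34a in their intestinal epithelial cells were compared with wt tumours, 3 libraries against 3. The 6 libraries were taken from 12 by their labels alone, and the other 6 are 3 miR-34a deficient and 3 p53 deficient tumours. All mice were of the FvB strain and had been given azoxymethane (AOM), a carcinogen that produces colon tumours in rodents, at 10 mg/kg by weekly intraperitoneal injection for 6 weeks, and the experiment ended at week 16. The wt mice received the same AOM schedule, so that every group is a tumour group and none holds untreated mucosa. Deletion was restricted to intestinal epithelial cells, so vessels, fibroblasts and immune cells of the same tumours kept both genes, and no sorting of cells before sequencing is stated. The promoter that drives the recombinase, the ages of the mice and whether the 3 libraries of a genotype came from separate animals are not stated in the labels. The p-values therefore measure the spread between these samples. The design allows the question of how the 2 losses combine in colon tumours.

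p53 is a transcription factor that is stabilised by DNA damage and switches on genes for cell cycle arrest, DNA repair and cell death. The gene of miR-34a is itself one of its direct targets, and miR-34a in turn represses mRNAs of cell cycle, invasion and cytokine receptor genes by pairing of its seed with their 3′ ends. Loss of both genes therefore removes the regulator and one of its effectors. The mature strands are shown because the seed, in capitals (bases 2 to 8), defines which mRNAs the microRNA can pair with. They are RefSeq sequences (GRCm38), at chr4:150068473-150068494 and chr4:150068517-150068537 on the plus strand.
mmu-miR-34a-5p: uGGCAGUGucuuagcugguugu
mmu-miR-34a-3p: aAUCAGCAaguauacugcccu

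Values are normalized expression scores per gene, rounded to whole numbers by the authors, and are not read counts, so the depth behind each value is unknown. Several properties of the libraries moved with genotype. Averaged over 4 Y-linked genes, the log2 level was 0, 2.84 and 4.35 in wt 1, 2 and 3, and 0.25, 0.40 and 0.79 in the double deficient libraries. Xist, the RNA of the inactive X chromosome, made up 23.2%, 0.0129% and 0.0146% of the column sum in wt and 5.92%, 4.52% and 1.24% in double deficient libraries. By these markers wt 1 resembled the double deficient libraries and wt 2 and wt 3 did not. In addition, 1 direction of variation within genotypes is absent from the deposited values, and 47.2% of its weight lies on double deficient 3. Where a count depends on it, that from a fit with that direction as a covariate (7 residual degrees of freedom in place of 8) is given as well. The part of these properties in the results was not tested beyond the fits named here.

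The deleted gene was read first. Trp53, which encodes p53 (ENSMUSG00000059552; GRCm38 chr11:69580359-69591873), was at 4512, 4305 and 4126 in wt against 924, 504 and 724 in double deficient tumours. Every double deficient library lay far below every wt library, with no overlap, and Trp53 fell by 2.63 ± 0.24 on the log2(value + 1) scale (difference ± SE, n = 3 libraries per genotype; limma, Benjamini-Hochberg adjusted p = 0.000623). What remained in whole tumours can come from cells that kept the gene or from transcript outside the deleted part, and these cannot be told apart here. Mir34a (ENSMUSG00000065493; chr4:150068454-150068555) is not analysed here, since no row of the table carries its name, so the second label has no direct check. Vil1, the gene of the brush border protein villin and a measure of epithelial content, was at 29687, 23814 and 20965 in wt and at 16701, 28444 and 23110 in double deficient tumours. The Vil1 levels overlapped, with a difference of -0.14 ± 0.22 (adjusted p = 0.808), and Cdh1, which encodes the epithelial adhesion protein E-cadherin, differed by -0.12 ± 0.14 (adjusted p = 0.724).

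Of 21322 genes tested (mean value of at least 1), 171 changed at an adjusted p under 0.05, which is 0.802% of all genes. Of these, 124 were lower (0.582% of all genes) and 47 higher (0.22%) in double deficient tumours, so that 72.5% of the changes were losses. By at least 2 on the log2 scale, 73 of the 124 fell and 25 of the 47 rose. The median difference over all tested genes was 0.02. With the absent direction as a covariate 57 genes changed (0.267%), 43 lower and 14 higher, and all 57 were among the 171. At an unadjusted p under 0.05 there were 1722 lower genes (8.08%) and 1532 higher genes (7.19%). The count varied with the libraries included. It was 29 without double deficient 3, 42 without double deficient 1, 42 without wt 1 and 59 without wt 3. Without wt 2 it was 129, and without double deficient 2 it was 174. It was 97 without miR-34a deficient 1 and 261 without p53 deficient 2, which enter through the shared estimate of spread. Leaving out a library also leaves fewer degrees of freedom, and these effects were not separated.

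**Figure D1:**
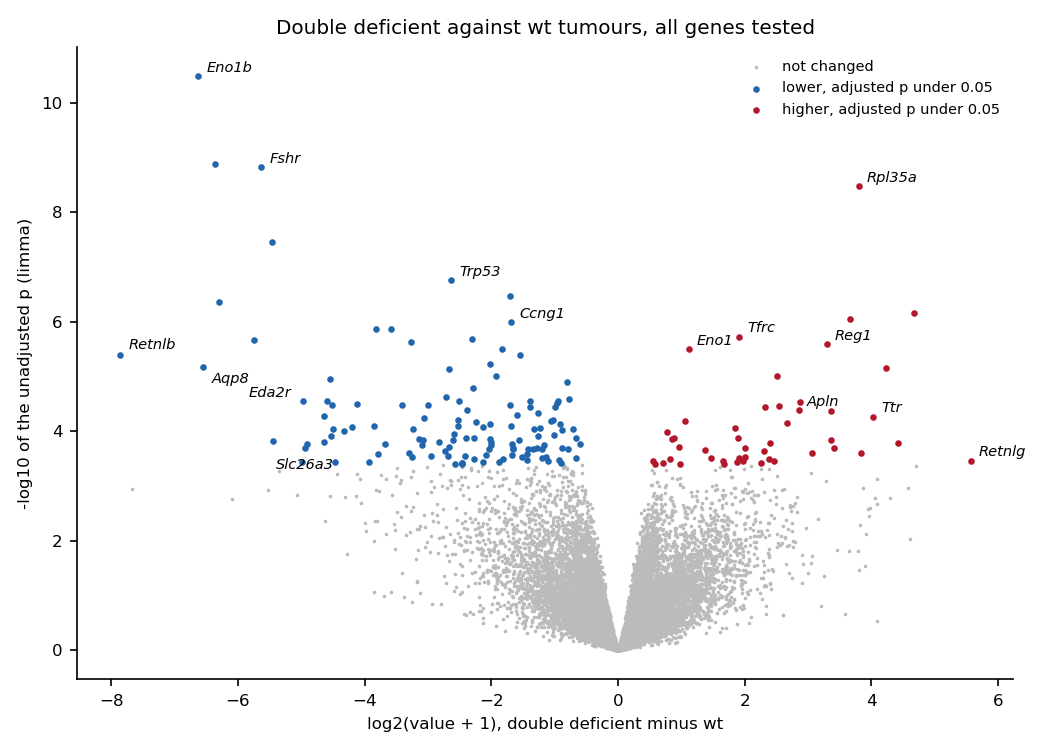
Each point is 1 of the 21322 genes tested, with the log2 difference (double deficient minus wt) on the x axis and -log10 of the unadjusted limma p on the y axis. Blue points are the 124 genes that fell and red points the 47 that rose; the lower genes reach further from 0 (Retnlb, Eno1b and Aqp8 at the left edge).

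The 9 p53 target genes that passed the test all fell in double deficient tumours. They were Ccng1, Fam212b, 9030617O03Rik, Eda2r, Sesn2, Ephx1, Cdkn1a, Phlda3 and Psrc1, out of 41 tested, against a background of 0.582% of all genes lower. This list and those below were drawn up with earlier results of these data known, and some genes are in more than 1 list. The median over the 41 was -0.58, and 34 lay below 0. Cdkn1a encodes p21, the cyclin-dependent kinase inhibitor through which p53 arrests the cell cycle. It was at 22035, 35763 and 11867 in wt and at 5448, 7855 and 6695 in double deficient tumours. The groups did not overlap although wt 2 stood far above wt 3, and Cdkn1a fell by 1.68 ± 0.32 (adjusted p = 0.0439). A stretch of its promoter is shown because p53 acts on this gene through DNA, and it holds a paired p53 core (CATGNNNNNNCATG, which reads the same on both strands), in capitals. It lies at chr17:29090871-29090978 on the plus strand (RefSeq, GRCm38.p6), just upstream of the annotated start.
Cdkn1a promoter stretch: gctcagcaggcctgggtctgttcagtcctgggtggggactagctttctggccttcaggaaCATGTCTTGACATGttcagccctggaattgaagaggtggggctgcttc

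Of 32851 promoters of equal length in the same RefSeq table, 234 (0.712%) hold that motif, and among the 9 fallen targets Cdkn1a was the single one with a match in this window. Ccng1, which encodes cyclin G1, had the smallest adjusted p of the targets. It was at 5125, 4437 and 3217 in wt and at 1402, 1228 and 1261 in double deficient tumours. The double deficient libraries were nearly level with each other, and the log2 difference was -1.69 ± 0.18 (adjusted p = 0.002). Eda2r, a death receptor of the TNF receptor family, had the greatest loss among the targets, from 1411, 3671 and 1164 in wt to 30, 174 and 35, a log2 difference of -4.97 ± 0.74 (adjusted p = 0.0156). Phlda3, a repressor of AKT signalling, went from 6258, 8986 and 2312 to 1106, 1193 and 1281, a log2 difference of -2.09 ± 0.40 (adjusted p = 0.0446). Sesn2, the stress-induced sestrin that restrains mTORC1, fell by 1.33 ± 0.23 (adjusted p = 0.0258). Ephx1, microsomal epoxide hydrolase, which detoxifies reactive epoxides, fell by 3.14 ± 0.56 (adjusted p = 0.0323). Fam212b (-3.58 ± 0.39, adjusted p = 0.00225), 9030617O03Rik (-2.30 ± 0.26, adjusted p = 0.00283) and Psrc1 (-2.13 ± 0.43, adjusted p = 0.0485) completed the group.

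Other well known targets showed smaller differences that did not pass. Mdm2, the ubiquitin ligase that degrades p53 and is itself induced by it, was at 3533, 5088 and 4198 in wt and at 3103, 3332 and 3188 in double deficient tumours. The levels did not overlap, and the difference of -0.40 ± 0.14 did not pass (adjusted p = 0.212). The cell death genes Bbc3 (PUMA), Bax and Pmaip1 (NOXA) differed by -0.92, -0.59 and -0.46, none of which passed. Within wt tumours the targets were unequal, since wt 2 was highest for 27 of the 41 and wt 3 lowest for 25. Of the 9 called targets, 4 remained with the absent direction as a covariate (Ccng1, Fam212b, 9030617O03Rik and Eda2r) and none with the code carried by the library names as a covariate. No other library carries the code of wt 1, so that fit takes wt 1 out of the comparison and has fewer residual degrees of freedom. The count was 3 without wt 1 or without double deficient 3, 4 without double deficient 1 or double deficient 2, and 5 without wt 2 or without miR-34a deficient 1.

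**Figure D2:**
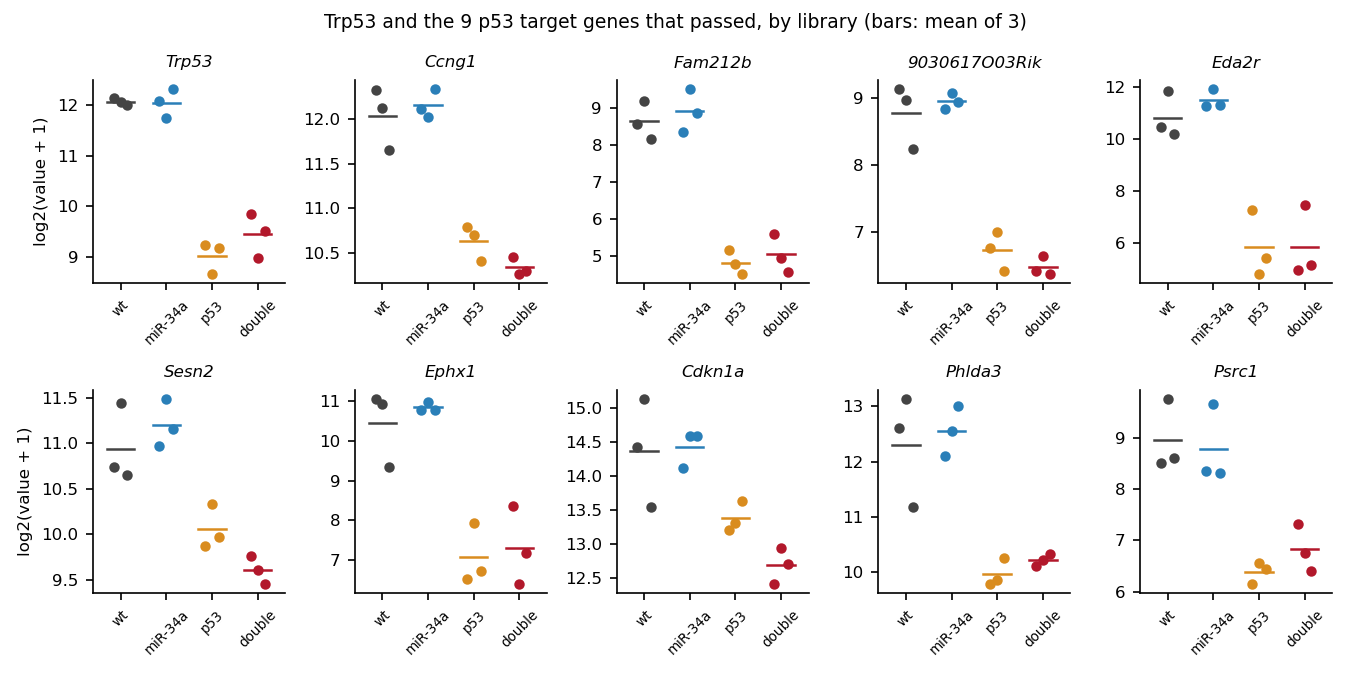
Trp53 and the 9 p53 target genes that fell, as log2(value + 1) on the y axis in each of the 12 libraries (points, 3 per genotype on the x axis) with the mean of 3 as a bar. Double deficient points lie below all wt points in every panel, and they share their range with p53 deficient points in most panels (Trp53 at 924, 504 and 724 against 598, 401 and 576).

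For these genes the test did not separate p53 deficient from double deficient tumours. In p53 deficient tumours 3 of the 9 passed against wt, where 5 of all genes did (0.0234%). They were Fam212b (adjusted p = 0.00781), Ccng1 and 9030617O03Rik (both adjusted p = 0.0368), and all were lower. Eda2r, at 155, 27 and 42, and Phlda3, at 883, 928 and 1221, did not pass there (adjusted p of 0.0604 and 0.08). None of the 9 targets passed in double deficient against p53 deficient tumours, where 0.605% of all genes did. The differences there ranged from -0.69 (Cdkn1a, adjusted p = 0.339) to 0.44 (Psrc1, adjusted p = 0.656). Against miR-34a deficient tumours, where 0.905% of all genes passed, 8 of the 9 were lower in double deficient tumours. Psrc1 was the exception, at -1.95 (adjusted p = 0.0619). The double deficient libraries are shared by these comparisons.

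Genes of the absorptive surface colonocyte, the mature cell that takes up water and salt at the top of the crypt, were lower as a group. Of 34 tested, 7 fell (Aqp8, Slc26a3, Saa1, Car4, Guca2a, Tmigd1 and Mep1b), where 0.582% of all genes did, none rose, and the median was -1.42. The groups did not overlap, with double deficient lower, for 23 of the 34. Over all genes 10.1% did so, 9.76% did so with double deficient higher, and 19.8% did so in either direction. Aqp8 encodes the water channel aquaporin 8 (chr7:123462291-123468004). It was at 298, 238 and 249 in wt and at 0, 10 and 1 in double deficient tumours. The transcript was thus nearly gone from all 3 double deficient tumours, a log2 difference of -6.54 ± 0.84 (adjusted p = 0.00589). Slc26a3, the chloride and bicarbonate exchanger of the colon (chr12:31390871-31473917), went from 819, 881 and 736 to 17, 71 and 13. Its log2 difference was -4.95 ± 0.92 (adjusted p = 0.0371). Car4, a membrane-bound carbonic anhydrase, had 207, 90 and 75 in wt and 3, 22 and 5 in double deficient tumours (a log2 difference of -3.78 ± 0.73, adjusted p = 0.0428). Guca2a, the gene of the secretory peptide guanylin, fell by 3.09 ± 0.57 (adjusted p = 0.035). Tmigd1 and the meprin subunit Mep1b fell, with differences of -2.68 ± 0.50 (adjusted p = 0.0371) and -2.41 ± 0.47 (adjusted p = 0.0456).

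Double deficient 2 kept more of these transcripts than the other double deficient tumours. It had the highest of the 3 double deficient values for 28 of the 34 colonocyte genes, and the mean log2 level over the list was 7.87, 9.37 and 8.53 in double deficient 1, 2 and 3, against 10.77, 10.10 and 10.34 in wt. In bulk tumours, fewer cells of a type and less RNA per cell cannot be told apart. None of 23 epithelial junction genes passed, and they went both ways, with 8 above and 15 below 0, from -1.02 to 2.80. Slc9a3, the sodium and hydrogen exchanger NHE3, had the highest difference of the colonocyte list, at 1.43, and did not pass. With the absent direction as a covariate Aqp8 remained as 1 of the 7 calls. With the library code, which takes wt 1 out, none remained, and with only the 6 libraries compared 4 were made. The count was 1 without any one of wt 1, wt 3, double deficient 1 or double deficient 3, 2 without miR-34a deficient 1, 3 without wt 2, and 4 without miR-34a deficient 2 or p53 deficient 3.

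Goblet cells secrete the mucus layer, and their genes were lower too. Among 26 goblet cell genes 3 fell (Retnlb, Clca3 and Fer1l6), where 0.582% of all genes did, and none rose. The median was -1.79. For 18 of 26 the groups did not overlap, with double deficient lower, where 10.1% of all genes did so. Retnlb encodes the secreted antibacterial protein RELMβ (chr16:48816856-48818892). It was at 5662, 4796 and 10451 in wt and at 12, 95 and 17 in double deficient tumours. The log2 difference of -7.86 ± 0.96 (adjusted p = 0.00394) was the largest in size of all 171. Clca3, the older symbol of the mucus protein gene Clca1, went from 49820, 39891 and 52572 to 1563, 6131 and 1342, a log2 difference of -4.33 ± 0.74 (adjusted p = 0.0265). Fer1l6 fell by 4.98 ± 1.00 (adjusted p = 0.0485). In p53 deficient tumours Clca3 was at 9641, 4006 and 4483. Clca3 and Fer1l6 did not pass in double deficient against p53 deficient tumours (limma, adjusted p of 0.452 and 0.381). Nor did they against miR-34a deficient tumours (adjusted p of 0.0732 and 0.0743). Retnlb was lower in double deficient tumours than in p53 deficient and miR-34a deficient tumours (adjusted p of 0.00854 and 0.0138). Muc2, the gel-forming mucin, was at 23791, 24974 and 33995 in wt and at 1850, 7074 and 1460 in double deficient tumours. Its levels did not overlap, but the difference of -3.35 ± 0.86 did not pass (adjusted p = 0.105). Zg16 and Tff3, further secreted goblet products, differed by -6.10 and -4.13 and did not pass. With the absent direction as a covariate Retnlb was the 1 goblet gene called, and with the library code, which takes wt 1 out, none was. Leaving out wt 1, wt 2, wt 3, double deficient 1 or double deficient 3 left 1, while 6 were called without double deficient 2 and 10 without miR-34a deficient 3.

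Among 24 colon ion pumps and channels 1 fell, where 0.582% of all genes did, and the median was -0.53. It was Atp12a, the non-gastric proton and potassium pump of the distal colon (chr14:56365068-56388550), at 41489, 53979 and 51628 in wt and 1477, 4516 and 1233 in double deficient tumours. No double deficient value came near a wt value, and Atp12a fell by 4.59 ± 0.68 (adjusted p = 0.0156). The epithelial sodium channel subunits Scnn1a, Scnn1b and Scnn1g differed by -0.41, -0.54 and -0.62 and did not pass. Clca6, a membrane protein of the same family as Clca3 that belongs to the surface epithelium, fell by 4.21 ± 0.71 (adjusted p = 0.0258). The trypsin inhibitor gene Spink3 went from 30125, 33488 and 60719 to 1396, 5385 and 755 (a log2 difference of -4.46 ± 0.89, adjusted p = 0.0485). Among 32 detoxification enzymes Ephx1 and the carboxylesterase Ces2e (a log2 difference of -3.08 ± 0.55, adjusted p = 0.0323) were lower, and the median was -0.92. The cytochrome P450 gene Cyp2d9 fell by 4.64 ± 0.84 (adjusted p = 0.0336), with the reservation that its close relatives in the Cyp2d cluster can share reads.

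Hormone-producing cells showed no call. None of 22 enteroendocrine genes passed, and the median was -0.77. Insl5, a peptide of L cells in the colon, was at 393, 197 and 406 in wt and at 7, 25 and 3 in double deficient tumours. Its levels did not overlap, and the difference of -5.07 ± 1.22 had an adjusted p of 0.0865. Gcg, which encodes proglucagon, had 51, 39 and 56 against 0, 12 and 1 (a difference of -4.05 ± 1.02, adjusted p = 0.0992). Sst, the gene of somatostatin, differed by -2.33 ± 0.73 (adjusted p = 0.166).

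The medians of the crypt-base and Wnt pathway lists lay near that of all genes. Medians were 0.04 over 19 intestinal stem cell genes, 0.00 over 26 Wnt target and feedback genes and 0.30 over 34 proliferation genes, with no call in any of the 3 lists. Single members lay further off. For 3 stem cell genes (15.8%, against 9.76% of all genes) double deficient was higher without overlap, Ephb2 among them (0.54 ± 0.18, adjusted p = 0.191), and for none lower. In the Wnt list 2 were higher without overlap (7.69%) and 1 lower (3.85%, against 10.1% of all genes), Wnt10a (-1.39 ± 0.52, adjusted p = 0.234). Lgr5, the stem cell receptor for R-spondins, was at 2288, 1275 and 6056 in wt and at 5907, 1487 and 4732 in double deficient tumours. These ranges overlapped, as did those of Axin2, a Wnt feedback gene, whose difference was 0.19 ± 0.39 (adjusted p = 0.866). Myc differed by 0.43 ± 0.18 (adjusted p = 0.27), and Mki67, a marker of cycling cells, by 0.34 ± 0.26 (adjusted p = 0.588). Of the proliferation genes 31 of 34 lay above 0, the highest of them at 0.59. At an unadjusted limma p under 0.05, 14.7% of them were higher (7.19% of all genes) and 2.94% lower (8.08%). Among posterior Hox and hindgut genes none of 15 passed, with a median of -0.49; Cdx2 and Hnf4a, transcription factors of intestinal identity, differed by -1.15 ± 0.61 (adjusted p = 0.412) and -0.36 ± 0.18 (adjusted p = 0.372).

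**Figure D3:**
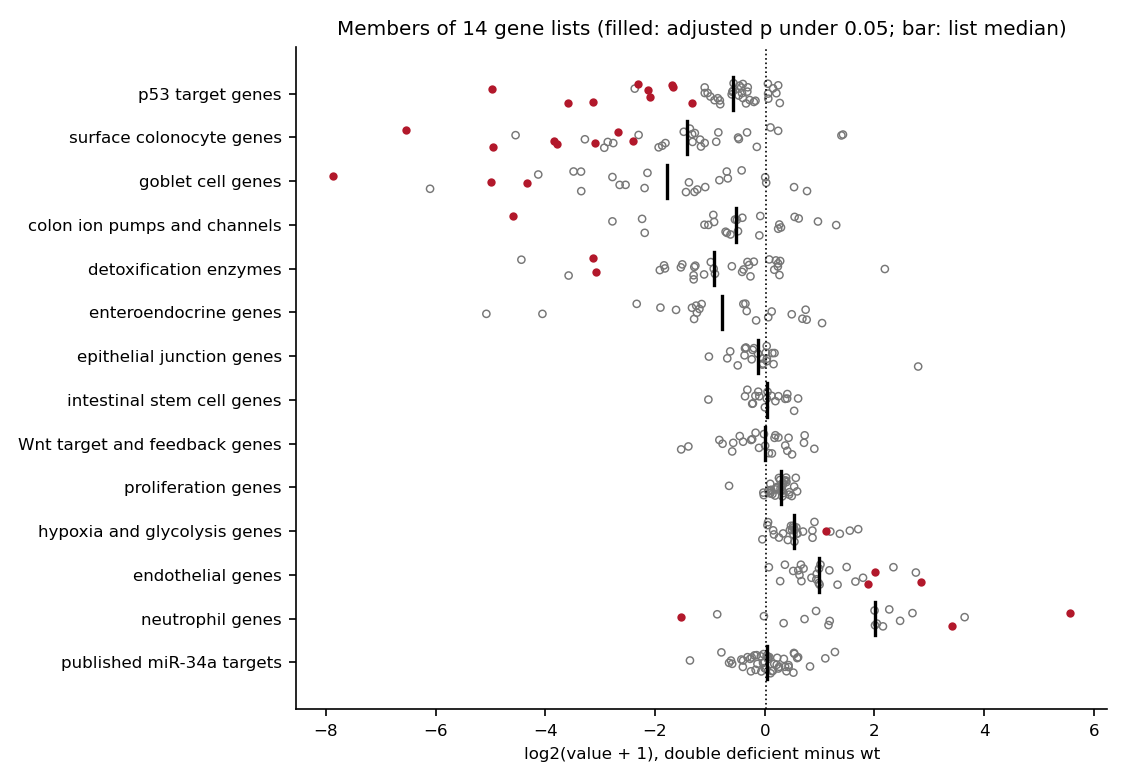
Each point is a member of 1 of 14 gene lists, placed by its log2 difference (double deficient minus wt) on the x axis; filled points passed at an adjusted p under 0.05, black bars are list medians, the dotted line is the median of all genes, and vertical jitter is arbitrary. Colonocyte and goblet genes lie mostly left of 0 (medians -1.42 and -1.79) and endothelial genes right of 0 (median 0.99).

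Antimicrobial and acute phase genes moved in both directions. Of 24, 3 fell (Pla2g2a, Saa1 and Saa2), 1 rose (Reg1), and the median was 0.58. Over all genes 0.582% fell and 0.22% rose. Pla2g2a, the secreted phospholipase that modifies intestinal tumour number in mice, was at 265659, 233995 and 82023 in wt and at 17538, 2147 and 10835 in double deficient tumours. It stayed below every wt value in all 3 double deficient libraries and fell by 4.54 ± 0.80 (adjusted p = 0.0319). GENCODE M21 lists Pla2g2a as a polymorphic pseudogene, 11.2 Mb from Mir34a, and whether its allele differs between the groups was not tested. Saa1, a serum amyloid A gene, went from 13305, 11126 and 8710 to 269, 2589 and 615 (a log2 difference of -3.85 ± 0.64, adjusted p = 0.0256). Saa2 fell by 4.13 ± 0.62 (adjusted p = 0.0156); the 2 genes are near-identical, so reads may be split between them. Reg1, a regenerating islet-derived lectin, was listed at 0 in all wt libraries and at 7, 8 and 12 in double deficient tumours (adjusted p = 0.00299). Mmp7, which encodes matrilysin, an activator of defensins, had 4192, 3365 and 1893 in wt and 15297, 9651 and 12530 in double deficient tumours, a difference of 2.04 ± 0.48 that did not pass (adjusted p = 0.0832).

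Most neutrophil genes lay above 0, 15 of 18, with a median of 2.005. Of the 18, 2 rose (Retnlg and Ngp) and 1 fell (Ly6g), where 0.22% of all genes rose and 0.582% fell. Retnlg, a resistin-like gene of granulocytes, was at 0, 1 and 0 in wt and at 86, 73 and 32 in double deficient tumours (adjusted p = 0.0483). Ngp, neutrophilic granule protein, was at 1, 1 and 0 against 22, 12 and 15 (adjusted p = 0.0371). Both were low in absolute terms, and neither was above 1 in any wt library. Ly6g, the surface antigen used to sort neutrophils, went the other way from 4555, 7234 and 4635 to 1407, 2469 and 1853, a log2 difference of -1.52 ± 0.30 (adjusted p = 0.0458). S100a8 and S100a9, the calprotectin subunits, differed by 2.69 and 3.64 without passing.

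Endothelial genes were higher. All 26 tested lay above 0, with a median of 0.99, and 3 of them rose (Apln, Flt1 and Cdh5) against a background of 0.22% of all genes. Apln encodes apelin, a peptide of endothelial tip cells in growing vessels (chrX:48025146-48034853). It was at 46, 107 and 56 in wt and at 582, 315 and 588 in double deficient tumours, and rose by 2.85 ± 0.44 (adjusted p = 0.0172). Flt1, a receptor for the vascular growth factor VEGF, went from 91, 188 and 106 to 688, 397 and 342, a rise of 1.89 ± 0.33 (adjusted p = 0.0323). Cdh5, the endothelial adhesion protein VE-cadherin, went from 63, 176 and 72 to 502, 343 and 312 (2.01 ± 0.38, adjusted p = 0.0371). In all 3 genes wt 2 was the highest wt library yet still below the lowest double deficient library. Broad vessel markers showed smaller differences that did not pass, with Pecam1 at 0.98, Kdr at 0.67 and Eng at 0.71. The mean log2 level over the list was 7.07, 7.71 and 6.97 in wt and 8.79, 8.31 and 8.17 in double deficient tumours. Stromal lists beside it had medians of 0.46 (19 pericyte and smooth muscle genes) and 0.23 (28 fibroblast and collagen genes), with no call.

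With the absent direction as a covariate 1 of the 3 endothelial calls remained (Apln), and it alone remained when the Y-linked level took that place. With the library code, which takes wt 1 out, none did. None was called without wt 1, without wt 3, without double deficient 1 or without double deficient 3, and 1 was called without miR-34a deficient 1. The mean log2 level over the list was 8.12, 8.24 and 8.52 in miR-34a deficient tumours, above every wt library and beside the double deficient ones, and 7.93, 6.93 and 7.23 in p53 deficient tumours. Flt1 was at 238, 256 and 223 in miR-34a deficient and at 248, 196 and 150 in p53 deficient tumours, and Cdh5 at 232, 229 and 290 and at 293, 170 and 210. Neither gene passed in either single loss against wt, nor in double deficient tumours against either single loss (adjusted p of 0.127 to 0.749). Apln was at 84, 60 and 176 when miR-34a alone was lost and at 233, 346 and 371 when p53 alone was lost. For Apln, double deficient tumours were above miR-34a deficient tumours by 2.30 (adjusted p = 0.0402), and the difference of 0.61 from p53 deficient tumours did not pass (adjusted p = 0.541).

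Genes of hypoxia and glycolysis were shifted in the same direction by small amounts. Of 28, 27 lay above 0, the median was 0.53, and 1 rose (0.22% of all genes did), the glycolytic enzyme gene Eno1. Eno1 (chr4:150236721-150248879) was at 32469, 32296 and 24964 in wt and at 62728, 63730 and 66176 in double deficient tumours, a rise of 1.11 ± 0.13 (adjusted p = 0.00337). Its near-identical copy Eno1b went the other way, from 19469, 16386 and 14333 to 126, 225 and 165, so reads may be split between them and the rise of Eno1 alone is uncertain. The sum of the 2 genes, taken after their values were seen, was 51938, 48682 and 39297 in wt and 62854, 63955 and 66341 in double deficient tumours, a log2 difference of 0.47 that was not tested. The sum was 53501, 58606 and 58256 in miR-34a deficient tumours and 51231, 68274 and 62948 in p53 deficient tumours. The p53 deficient values span the double deficient ones, and the miR-34a deficient values lie below them. Eno1 lies 0.168 Mb from Mir34a, and its own level in miR-34a deficient tumours was 53416, 58471 and 58185. For Eno1 alone, double deficient and miR-34a deficient tumours differed by 0.18 (adjusted p = 0.501), while p53 deficient tumours were lower than double deficient tumours by 0.85 (adjusted p = 0.0189). Slc16a3, the lactate exporter MCT4, went from 1371, 2212 and 1048 to 4370, 5973 and 7788, a rise of 1.999 ± 0.39 (adjusted p = 0.0458). Bnip3, a hypoxia-induced gene of mitochondrial clearance, differed by 1.55 ± 0.35 (adjusted p = 0.0746), and Tpi1, triosephosphate isomerase, by 0.54 ± 0.15 (adjusted p = 0.126).

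The transferrin receptor gene Tfrc, through which cells take up iron, rose with little spread (chr16:32608920-32632794). It was at 3011, 1948 and 3115 in wt and at 10687, 8630 and 10378 in double deficient tumours, a rise of 1.90 ± 0.21 (adjusted p = 0.00283). In miR-34a deficient tumours Tfrc was at 3338, 2574 and 2346 and in p53 deficient tumours at 4839, 3594 and 5180. Double deficient tumours were above both, by 1.86 (adjusted p = 0.00299) and 1.14 (adjusted p = 0.0444). The interaction of the 2 deletions, which asks whether the double loss differs from the sum of the single losses, did not pass for Tfrc (1.09 ± 0.30, adjusted p = 0.427); it passed for 0.0234% of all genes.

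Btc, which encodes the EGF receptor ligand betacellulin, rose from 2949, 2528 and 2809 to 5937, 5055 and 6273, by 1.06 ± 0.17 (adjusted p = 0.0232). It was the single call among 30 EGFR ligand and ERK output genes, whose median was -0.06 (0.802% of all genes were called). Scd1, the desaturase that makes monounsaturated fatty acids, rose by 1.46 ± 0.29 (adjusted p = 0.0466), and the cytidine deaminase gene Apobec3, a restriction factor for retroviruses, by 1.85 ± 0.31 (adjusted p = 0.0258). Ttr, the thyroid hormone carrier transthyretin, went from 286, 43 and 253 to 1913, 3201 and 2232 (4.02 ± 0.64, adjusted p = 0.0205). Its level in miR-34a deficient tumours, 943, 669 and 684, also lay above that in wt, a difference of 2.36 ± 0.64 that did not pass (adjusted p = 0.564). Ctla2a, a cysteine protease inhibitor, Gng11, a G protein subunit, and Lincenc1, a long non-coding RNA, rose by 1.91 ± 0.37, 1.65 ± 0.33 and 1.37 ± 0.26 (adjusted p of 0.0466, 0.0483 and 0.038).

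**Figure D4:**
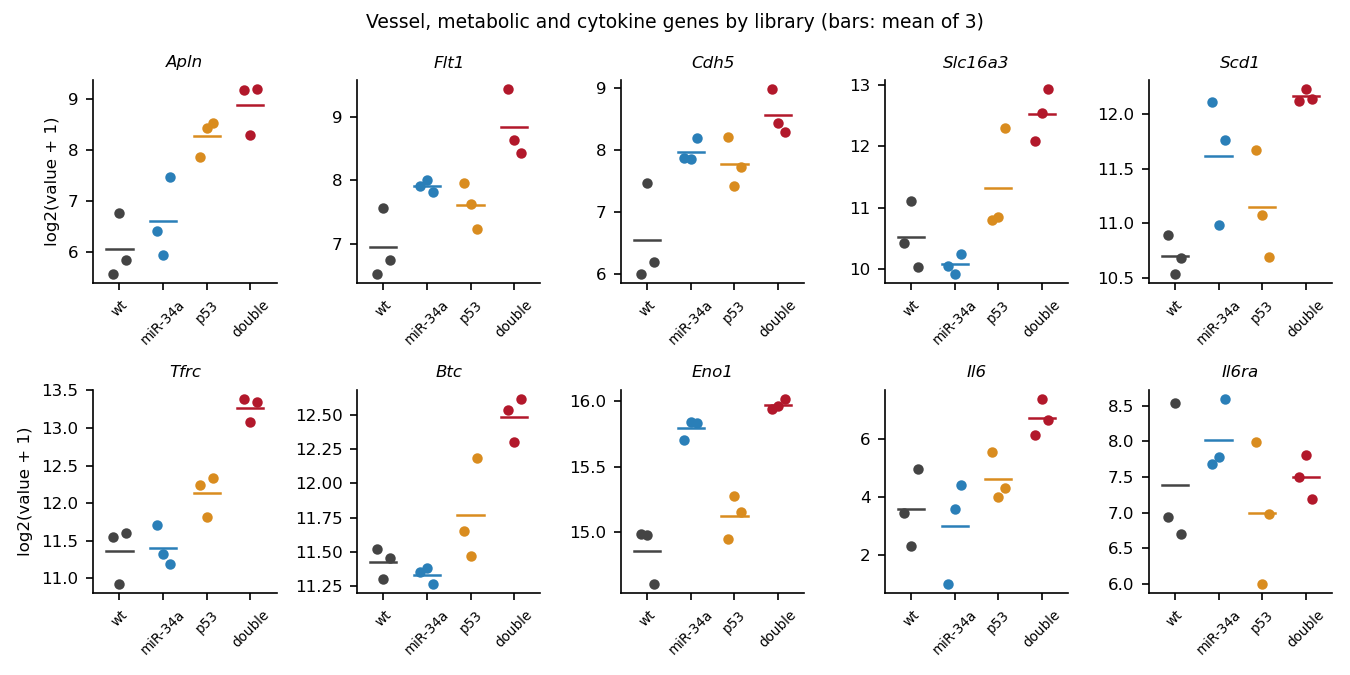
Vessel, metabolic, growth factor and cytokine genes as log2(value + 1) on the y axis in each of the 12 libraries (points), with genotypes on the x axis and the mean of 3 as a bar. For Tfrc the double deficient points (8630 to 10687) lie above all other libraries, whereas for Il6ra the ranges of wt (103 to 370) and double deficient (145 to 224) overlap.

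No published miR-34a target passed the test in either direction, of 48 tested, and the median was 0.05. At an unadjusted p under 0.05, 8 were higher (16.7%, against 7.19% of all genes) and 3 lower (6.25%, against 8.08%). The same numbers, 8 higher and 3 lower, did not overlap between the genotypes, against 9.76% and 10.1% of all genes. Whether the list departs from other genes was not tested. Il6ra encodes the IL-6 receptor subunit, a target described for this microRNA in colorectal cancer cells (chr3:89864059-89913196). It was at 122, 370 and 103 in wt and at 179, 224 and 145 in double deficient tumours, which overlapped, with a difference of 0.11 ± 0.55 (adjusted p = 0.954). Axl, a receptor tyrosine kinase, had 701, 1351 and 733 against 1361, 880 and 622 and likewise overlapped (0.03 ± 0.35, adjusted p = 0.976). Inhbb, which encodes the activin beta-B subunit, had 270, 365 and 165 against 871, 414 and 649. Inhbb levels did not overlap, and the difference of 1.28 ± 0.37 did not pass (adjusted p = 0.143). In miR-34a deficient tumours Inhbb was at 449, 435 and 614 and in p53 deficient tumours at 208, 131 and 280.

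Matches to the miR-34a-5p seed are shown for these genes because they are the stretches the microRNA could pair with. The letters searched, on the transcript strand after the stop codon, were CACTGCC, and capitals mark the match (with a final A where one follows). Each line is from GENCODE M21 transcripts, 1 per gene, the one with the longest such region.
Il6ra site 1: gcctcgctctgcctCACTGCCc
Il6ra site 2: actgtatgaaccctCACTGCCc
Il6ra site 3: ttcctgctacacctCACTGCCA
Il6ra site 4: ggttgggtggcaccCACTGCCc
Axl site: ggacccaagctaggCACTGCCA
Inhbb site: cagtcctgcctgctCACTGCCc

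Il6ra held 4 matches in a region of 7102 bases, and 50% of the 458 genes with a region of like length (0.8 to 1.25 times) held at least 1. Axl and Inhbb held 1 each, where 15.4% and 20.6% of genes with regions of like length held at least 1. Il6, the ligand of the receptor, was at 10, 4 and 30 in wt and 70, 165 and 100 in double deficient tumours. The 3 double deficient values all lay above the 3 wt values, with a difference of 3.15 ± 0.88 that did not pass (adjusted p = 0.129). Socs3, a feedback inhibitor induced by IL-6 and STAT3, differed by 0.60 ± 0.34 (adjusted p = 0.446) and Stat3 by 0.33 ± 0.13 (adjusted p = 0.249). None of 25 IL6 family and inflammatory cytokine genes passed, and their median was 0.73. Among 16 EMT genes, which mark the change from epithelial to mesenchymal state, none passed and the median was -0.08; Vim, the gene of vimentin, differed by -0.28 ± 0.29 (adjusted p = 0.706).

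Several of the largest changes concern gene copies or genes known mainly from other tissues. Eno1b, a near-identical copy of Eno1, read 19469, 16386 and 14333 in wt, 126, 225 and 165 in double deficient, and 85, 135 and 71 in miR-34a deficient tumours. It followed the miR-34a genotype, with a log2 difference of -6.62 ± 0.27 against wt (adjusted p = 6.91e-07) and a difference of 0.83 from miR-34a deficient tumours (adjusted p = 0.144). Rpl35a, a ribosomal protein gene with many copies, rose by 3.80 ± 0.23 (adjusted p = 1.78e-05), from 912, 542 and 428 to 8262, 7922 and 8714. Its level in miR-34a deficient tumours was 4475, 6149 and 5453. The pseudogenes Rpl35a-ps4, Rpl35a-ps5 and Rpl35a-ps6, named after their values were seen, also changed against wt and went the other way, lower in double deficient tumours. For Eno1, Eno1b and Rpl35a, reads shared with near-identical copies make the level of each single locus uncertain, as they do for the pseudogene Rpl3-ps1 (a log2 difference of -4.91 ± 0.90, adjusted p = 0.0345). Khdc1a, a gene known from oocytes and early embryos, fell by 5.45 ± 0.98 (adjusted p = 0.0335) with a wide wt range of 529 to 7335.

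Fshr, which encodes the receptor for follicle-stimulating hormone (chr17:88984952-89200675), was low in double deficient tumours alone. The wt tumours read 2311, 2737 and 1286, the miR-34a deficient ones 1187, 1701 and 1002, the p53 deficient ones 1321, 1712 and 1264, and the double deficient ones 58, 33 and 32. Every double deficient library lay far below every other library. Fshr fell by 5.64 ± 0.32 against wt (adjusted p = 1.06e-05). Its difference was -5.13 from p53 deficient tumours (adjusted p = 2.21e-05) and -4.97 from miR-34a deficient tumours (adjusted p = 6.34e-05).

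**Figure D5:**
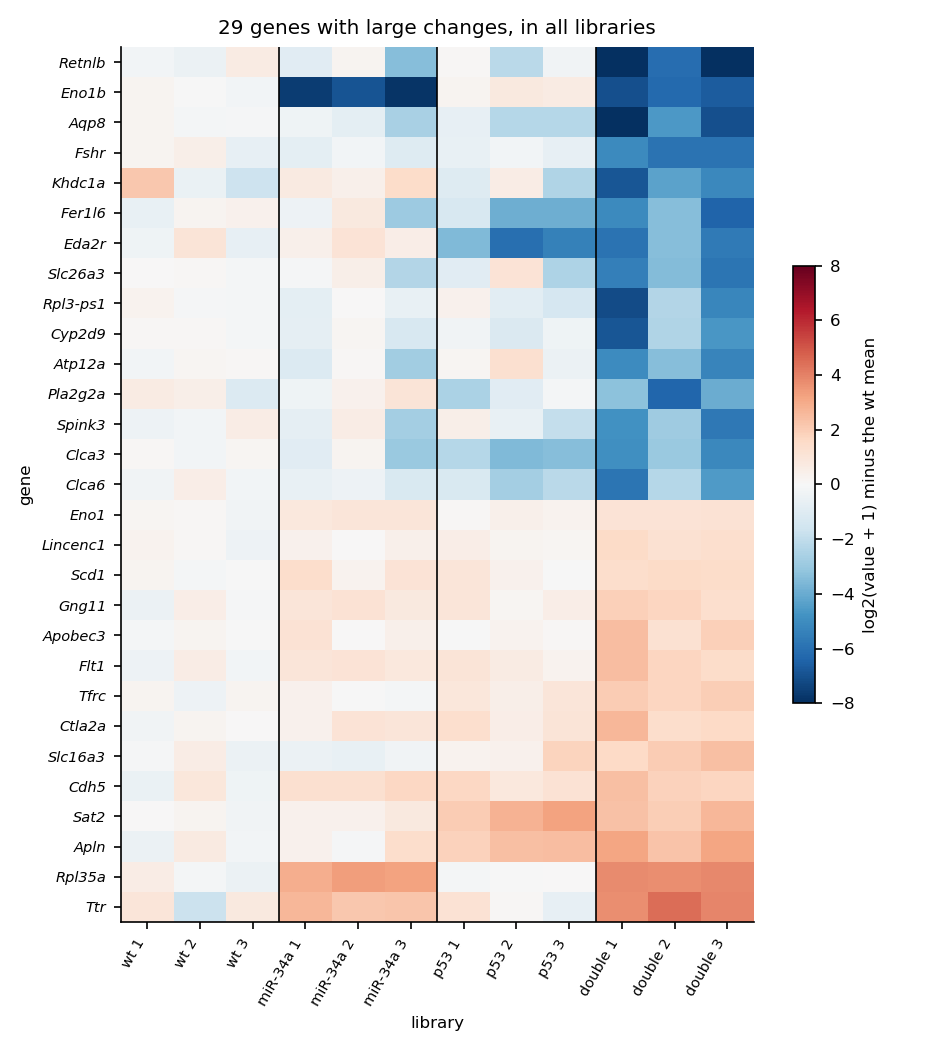
The 29 genes shown (rows) are named genes with the largest changes, in all 12 libraries (columns), coloured by log2(value + 1) minus the mean of the 3 wt libraries, on a scale capped at 8 in either direction. Eno1b and Rpl35a change colour with the miR-34a genotype, Eda2r and Sat2 with the p53 genotype, and Fshr is dark blue in double deficient columns alone.

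Genes close to the 2 deleted loci were called more often than genes at large. Within 5 Mb of Trp53, 5 of 186 tested genes changed (2.69%, against 0.802% of all genes), 4 higher and 1 lower, and the median was 0.24. The higher ones were Sat2, Shbg, Mybbp1a and Alox12b, and Trpv1 was lower; of these Sat2 met the naming rule, and the others were named after their values were seen. Sat2, a thialysine acetyltransferase gene 0.0302 Mb from Trp53 (chr11:69622024-69623870), had 24, 27 and 19 in wt and 121, 92 and 154 in double deficient tumours. It rose by 2.32 ± 0.36 (adjusted p = 0.0156), and was at 98, 167 and 228 when p53 alone was lost and at 29, 30 and 41 when miR-34a alone was lost. Within 5 Mb of Mir34a, 4 of 134 genes changed (2.99%): Eno1 (uncertain beside its copy Eno1b) was higher and Hes2, Lzic and Phf13 were lower, with a median of -0.24. The excess near the loci was not tested.

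The mean absolute log2 difference over the 9791 genes whose mean reached 500 was 0.26 to 0.41 within double deficient, 0.37 to 0.40 within wt and 0.40 to 0.49 between the genotypes. Of the 3 double deficient pairs, 2 were closer than any wt pair. Double deficient 2 and 3 were the closest, at 0.26, and these are the libraries that carry most of the absent direction. Among the 124 lower genes double deficient 2 had the highest of the 3 values in 72, and double deficient 3 in 12. Among the 47 higher genes double deficient 1 was highest in 21 and double deficient 3 in 17.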

How the data were processed

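Total RNA of 12 tumours was sequenced by standard Illumina protocols, per the labels' protocols. The deposited table holds 1 score per gene symbol and library, a normalized expression value that the authors had rounded to whole numbers. The submitters' processing notes name the build mm10. How reads were aligned, counted and normalized is not stated in the labels. The values were used as log2(value + 1) without rescaling. Of 21792 genes, 95 were 0 in every library, and those 21322 whose mean reached 1 went into limma 3.58.1 under R 4.3.3. The fit had 1 mean per genotype, all 12 libraries, trended prior variance and 8 residual degrees of freedom. Tests were two-sided, with Benjamini-Hochberg adjustment. The procedure was run on simulated data, with noise drawn independently for each gene and library. That simulation held neither the absent direction nor the library codes, so it could not check the calls against these. A difference on this scale understates the change of low genes. No set test was made: a list is described by its calls and median. The members, the 34 lists and the rules were chosen with earlier results of these data known, and the matching of gene symbols was corrected after the table was seen. Named genes are Trp53, Mir34a and Vil1, the up to 15 largest changes per direction (higher group mean of at least 100, groups not overlapping, no clone or predicted names), list members that passed or up to 3 with the smallest p, and fixed genes of the p53, IL6, Wnt and differentiation programmes; other list members are given by their differences only, chosen after their values were seen. Positions are GENCODE M21 (GRCm38), found for 97.3% of tested genes. Alternatives were other pseudocounts, filters, rescalings, covariates and sets of libraries. Some results are not reported here.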

Additional observations from a re-analysis of the deposited data

Results flagged for a closer look

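Among the named genes, Fshr was set apart by a test of the interaction of the 2 deletions. In double deficient tumours its level lay 4.47 ± 0.46 on the log2 scale below the sum of the 2 single losses (interaction of -4.47, limma, adjusted p = 0.00779), and it passed in all 27 alternatives of the comparison with wt. The 3 double deficient values, 58, 33 and 32, were below those of all 9 other libraries, of which the lowest was 1002. Over all genes 5 interactions passed (0.0234%). They include the processed pseudogenes Gm15195 (-6.73, adjusted p = 0.000684) and Gm10093 (-4.79, adjusted p = 0.0258), which were also low in double deficient tumours alone. Gm10093 (chr17:78491582-78493025) lies on the same chromosome as Fshr (chr17:88984952-89200675). Whether their changes are independent was not tested.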

How the results depend on the processing

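None of the 51 named genes that changed reversed direction in those of the 27 alternatives that tested it (26 for Reg1 and some others). In all 171 changed genes the groups did not overlap, so a new pseudocount or a library left out could not reverse the direction. Of the 51, 31 passed in most alternatives and 3 (Eno1b, Fshr and Rpl35a) in every one. The count of 171 changed genes became 113 with a pseudocount of 100, 88 with only the 6 libraries compared, 57 with the absent direction, 80 with the Y-linked level and 16 with the library code as a covariate, 74 without miR-34a deficient 1 and p53 deficient 1 (whose names carry another code), and 9 with wt 2 and wt 3 left out. Other pseudocounts, filters, rescalings and a robust prior gave 131 to 188, and leaving out 1 library 29 to 261; without wt 2 the share of lower genes was 58.9% of 129 (72.5% of 171 with all libraries), with a pseudocount of 100 62.8%, and without double deficient 2 83.3%. In the same order of alternatives, the 9 p53 targets became 5 (only the 6 libraries), 4, 4, 0, 4 and 3, with 3 to 10 on leaving out 1 library. The 7 colonocyte genes became 2 with a pseudocount of 100, 3 without the filter, then 4, 1, 3, 0, 1 and 0, with 1 to 9 on leaving out 1 library. The 3 goblet genes became 1 with the absent direction, 0 with the library code, 1 without the libraries with another code and 0 without wt 2 and wt 3, with 1 to 10 on leaving out 1 library. The 3 endothelial genes became 1 with a pseudocount of 100, 1 with the 6 libraries, 1, 1, 0, 1 and 0, with 0 to 4 on leaving out 1 library. Fewer libraries or added covariates leave fewer degrees of freedom, and the library code also takes wt 1 out of the comparison. Beyond that the cause was not tested.

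The differences that changed sign were not called, and with all libraries each was smaller than its SE. Axl was -0.078 with the Y-linked level, -0.11 with the library code, -0.13 without wt 1, -0.10 without wt 3 and -0.26 without double deficient 1, and ranged up to 0.34 on leaving out 1 library. Il6ra was -0.25 with the library code, -0.12 without wt 1, -0.24 without wt 3 and -0.052 without double deficient 2, and ranged up to 0.68. On leaving out 1 library Axin2 ranged from -0.031 (without wt 3) to 0.38, Lgr5 from -0.10 (without wt 2) to 1.02, Vil1 from -0.32 to 0.062 (without double deficient 1) and Vim from -0.59 to 0.033 (without wt 2). Cdh1 was 0.20 after quantile normalization, and Vim 0.35 without wt 2 and wt 3.

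Same-numbered wt and double deficient libraries correlated at -0.07, 0.19 and 0.12 in their deviations, so the replicate numbers were not taken as pairs. With the replicate number as a block 102 genes changed, 88 of them among the 171, and the colonocyte count was 3. Depth is unknown, so no counting error could be given, and values near 0 carry an unknown precision.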

Other observations

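Interferon response genes leaned lower, with a median of -0.47 over 25 tested and no call; Rsad2, the antiviral enzyme viperin, was at 279, 143 and 985 in wt and 182, 55 and 58 in double deficient tumours (a difference of -2.01 ± 0.70, adjusted p = 0.202), and Irf7, the factor that drives the response, differed by -1.10 ± 0.39 (adjusted p = 0.207). In wt 3 the mean log2 level of the list was 9.69, against 8.35 and 7.76 in wt 1 and wt 2. Genes of tuft cells, the chemosensory cells of the epithelium, had a median of 0.44 over 16; Avil, which encodes advillin, was at 3312, 2954 and 281 in wt and 11828, 6322 and 7752 in double deficient tumours (2.57 ± 0.80, adjusted p = 0.163). Cldn2, the claudin that makes tight junctions leaky to cations, was at 14581, 1335 and 8073 against 51242, 21740 and 47276 (2.80 ± 0.70, adjusted p = 0.0993), the largest difference of the 23 junction genes.

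Mast cell genes had a median of 1.00 over 12 and no call, and double deficient 1 stood above the rest. Tpsab1, a mast cell tryptase, was at 5754 there, at 535 and 1315 in double deficient 2 and 3 and at 1125, 527 and 229 in wt. Cma1, the chymase, was at 1273 there and at 149 and 327 in the other double deficient libraries. The mean log2 level of the mast cell list was 10.6 in double deficient 1 and 7.41 to 9.06 in wt. Macrophage genes (24, median 0.06), T cell and cytotoxic genes (19, median 0.64) and B cell and plasma cell genes (13, median -0.27) had no call. Nos2, inducible nitric oxide synthase, was at 407, 841 and 1391 in wt, and at 2367, 2157 and 2217 in double deficient tumours (1.52 ± 0.44, adjusted p = 0.138); with p53 alone lost it was at 2679, 3959 and 5029.

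The lists that follow also had no call. Their medians were 0.32 over 20 cholesterol synthesis and uptake genes, 0.00 over 21 fetal, regenerative and YAP genes, 0.03 over 21 squamous and gastric genes, -0.04 over 15 enteric neuron and glia genes and -0.10 over 7 MHC class II genes.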
